A study of Cenchrus americanus with 9 samples.

Results

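Of the 19754 genes listed for pearl millet roots, 55 were listed at 0 in all 3 libraries of at least 1 root type and at 30 normalised counts or more in all 3 libraries of another. These 55 genes were selected on the measured values of the same 9 libraries, so the contrast between the root type at 0 and the root type carrying the expression is given as a description, with no test and no fold change. A count may not equal a read here, and a normalised count is that count divided by a factor for its library. It was not divided by transcript length, so values are compared between libraries and not between genes.

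The plants were of the reference genotype Tift23DB, grown in rhizotrons (flat boxes with a transparent face) and sampled after 15 days of growth. The 9 libraries formed 3 groups of 3. The primary root group and the crown root group were root tips (5 cm apex), and the lateral root group was made of lateral roots borne on primary roots, with no apex length given. All groups shared genotype, growth system and age, no treatment is stated, and each library pooled roots of 3 plants. The sampled portion therefore differs between lateral roots and the others, and root type and portion of the root cannot be told apart. The genes carry identifiers with no names, and no annotation was used here, so the sampled tissues were not checked against marker genes and no function is given to any gene.

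In cereals, the primary root emerges from the embryo, crown roots arise later from the nodes of the stem base, and lateral roots branch from either, starting from inner cell layers of the parent root. A root tip holds the meristem, the elongation zone and the first differentiating tissues, including root hairs. The share of meristem, hair-bearing epidermis and conducting tissue thus differs along a root and with its diameter. A bulk library averages all of these cells, so fewer cells of a type and less RNA per cell cannot be told apart.

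The libraries held 39739052 to 64062081 counts recovered from the normalised values, which may not equal reads. The 3 crown libraries, at 49026933 to 55457911, lay within that range. Of the listed genes, 302 to 398 were at 0 in a crown library, against 162 to 311 in a primary and 179 to 244 in a lateral library. A 0 in a single library did not always go with low values elsewhere. Across all genes, 576 were at 0 in exactly 1 library, and in 16 of them the other 8 libraries were all at 30 or more. The clearest cases were Pgl_GLEAN_10035476, at 0 in primary replicate 2 and at 1922 or more in the other 8 libraries, and Pgl_GLEAN_10031650, at 0 in lateral replicate 3 and at 1175 or more elsewhere. A gene is therefore described as listed at 0, not as silent.

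The 55 genes fell very unevenly over the root types. Crown roots were at 0 for 41 of them, lateral roots for 10 and primary roots for 6, with 2 genes counted for both crown and primary roots. The commonest pattern by far was 0 in crown roots with expression carried by lateral roots alone, seen in 35 genes. A further 2 genes at 0 in crown roots were carried by primary roots, 2 by both primary and lateral roots, and 2 by lateral roots with primary roots also at 0. Of the 10 genes at 0 in lateral roots, 7 were carried by crown roots and 3 by crown and primary roots. Of the 4 genes at 0 in primary roots alone, 3 were carried by lateral roots and 1 by crown roots.

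**Figure D1:**
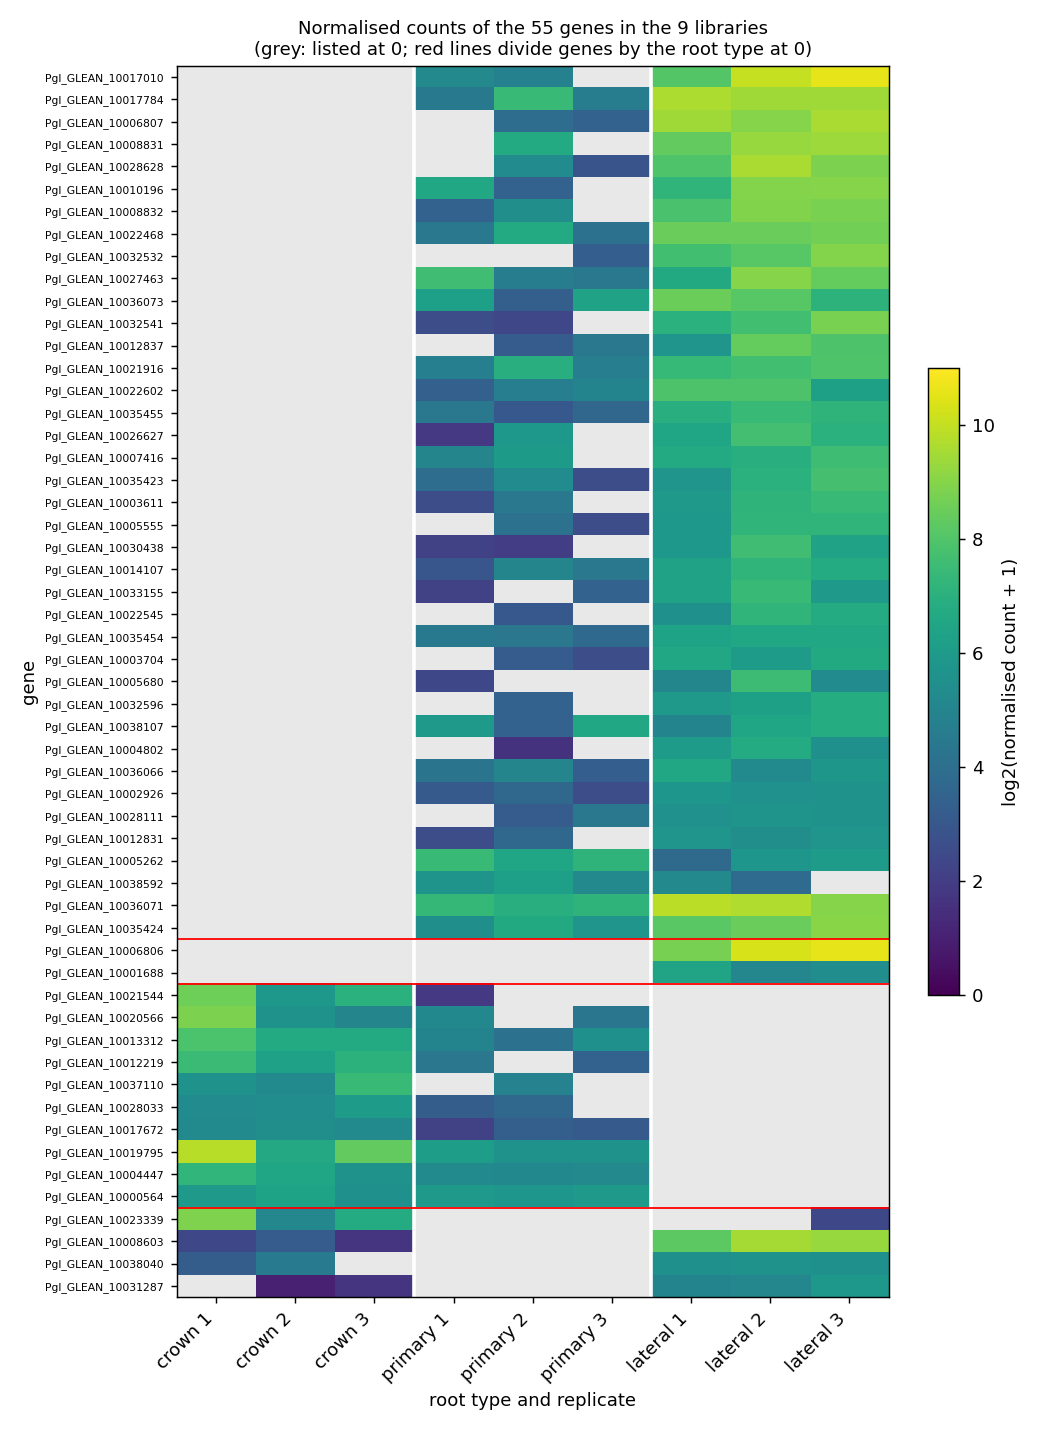
Normalised counts of the 55 genes (rows) in the 9 libraries (columns), as log2(normalised count + 1). Grey cells are values listed at 0, and red lines divide the genes by the root type at 0. The upper block holds the genes at 0 in crown roots, most of them brightest in the 3 lateral libraries and dim or grey in the primary libraries.

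The limit of 30 decided how many genes with 0 were kept. In all, 146 of the listed genes were at 0 in every library of at least 1 root type. The authors' methods asked for a summed count of at least 90 over the samples. Low genes with zeros may therefore be missing from the list, and the shares below hold for listed genes only. The 41 genes were 44.1% of the 93 genes at 0 in crown roots, the 10 genes 32.3% of the 31 at 0 in lateral roots, and the 6 genes 17.1% of the 35 at 0 in primary roots. Just inside the limit stood Pgl_GLEAN_10038107 and Pgl_GLEAN_10031287, each with a lowest lateral value of 30.3, and Pgl_GLEAN_10020566, with a lowest crown value of 31.3. Just outside stood Pgl_GLEAN_10023338 (lowest crown value 28.4), Pgl_GLEAN_10005174 (lowest primary value 28.4) and Pgl_GLEAN_10008824 (lowest lateral value 28.1). On the side of the 0, 18 genes at 30 or more in another root type had values above 0 but summing to under 5 over the crown libraries, against 5 for primary and 4 for lateral roots.

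Full sets of 3 zeros were set beside partial sets among genes that reached 30 in every library of another type. For crown roots, 141 of 17901 such genes were at 0 in 1 library, 53 in 2 and 41 in all 3. For primary roots the numbers were 87, 18 and 6 of 17927 genes, and for lateral roots 52, 21 and 10 of 17608. Crown roots thus had the most genes at each step. Where 2 of the 3 crown libraries were at 0, the remaining one was under 10 in 27 of the 53 genes and at 30 or more in 13. For primary roots these numbers were 8 and 6 of 18 genes, and for lateral roots 8 and 9 of 21.

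**Figure D2:**
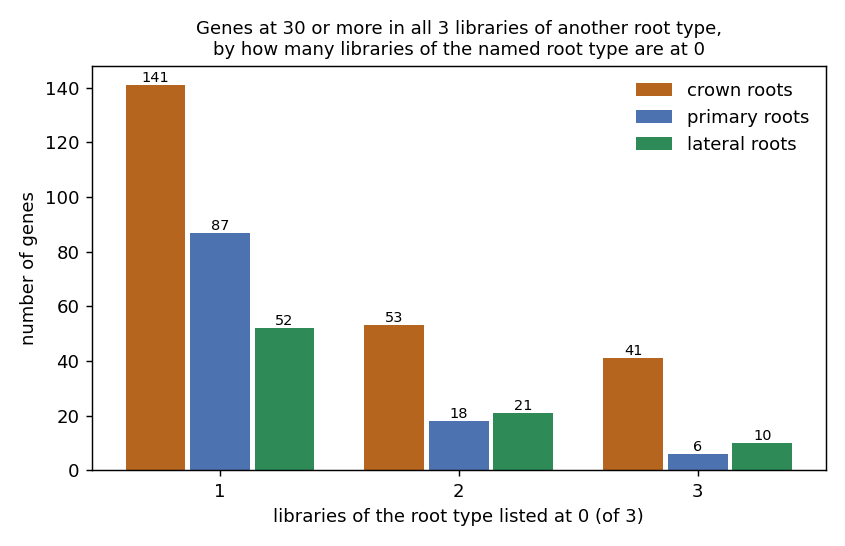
Number of genes (vertical axis) at 0 in 1, 2 or all 3 libraries of the named root type (horizontal axis), among genes at 30 or more in all 3 libraries of another root type. The bars on the right are the selected genes, 41 for crown, 6 for primary and 10 for lateral roots.

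The same counts were arranged by library, leaving each out and choosing genes from the remaining 8. The genes also at 0 in the library left out were each time the selected 41 for crown, 6 for primary and 10 for lateral roots. The shares are thus another view of the numbers above and no check on new libraries. Of the genes at 0 in 2 crown libraries, 71.9% of 57 were also at 0 when crown replicate 1 was the one held back, 78.8% of 52 for replicate 2 and 61.2% of 67 for replicate 3. The shares were 62.5%, 50% and 66.7% for the lateral replicates in the same order, from 16, 20 and 15 genes. Primary roots rested on the fewest genes, with 6 of 13, 6 of 15 and 6 of 8. Of the held-back values that were not 0, the median lay between 8.63 and 11.2 for crown roots. It lay between 6.35 and 20.3 for primary and between 8.32 and 37.4 for lateral roots. Some were high, up to 978 in crown replicate 2, 1731 in primary replicate 1 and 1127 in lateral replicate 3. Leaving out a library can only loosen the rule, so the number of genes could stay or rise but not fall. That number rose by over 1.5 times in several cases. It rose from 41 to 67 for crown roots without crown replicate 3. For lateral roots it rose from 10 to 16 without lateral replicate 1 and to 20 without lateral replicate 2. For primary roots it rose from 6 to 13 without primary replicate 1, to 15 without primary replicate 2, to 12 without crown replicate 2 and to 10 without lateral replicate 1.

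Both genes at 0 in 2 root types were carried by lateral roots. Pgl_GLEAN_10006806 stood at 427, 1277 and 1560 normalised counts in lateral replicates 1, 2 and 3, and at 0 in the other 6 libraries. Its mean in lateral roots was 1088 (SD 590, n = 3), and replicate 1 lay well below the others. Pgl_GLEAN_10001688 stood at 85.5, 33.5 and 40.6 in the lateral libraries and at 0 in the other 6. Here replicate 1 was the highest, so the replicates of these 2 genes did not share an order.

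Among the 35 genes carried by lateral roots with 0 in crown roots, lateral means ran from 49.0 to 963 normalised counts (median 140). The mean lay under 100 in 11 genes. Pgl_GLEAN_10017010 stood at 269, 1058 and 1564 in the lateral libraries, and at 35.4, 27.4 and 0 in the primary libraries. Pgl_GLEAN_10017784 was steadier, at 796, 699 and 700 in lateral roots against 21.1, 167 and 24.1 in primary roots. Pgl_GLEAN_10006807, the next identifier after Pgl_GLEAN_10006806, stood at 691, 507 and 784 in lateral roots and at 0, 14.2 and 10.2 in primary roots. In all 3 genes, each lateral library was above each primary library.

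Other genes with high lateral values had 1 primary library well above the other 2. Pgl_GLEAN_10008831 stood at 324, 629 and 666 in lateral roots, and among the primary libraries at 103 in replicate 2 and 0 in the others. Pgl_GLEAN_10028628 stood at 250, 783 and 458 in lateral roots and at 0, 38.5 and 6.35 in primary roots. Pgl_GLEAN_10010196 stood at 146, 503 and 508 in lateral roots and at 92.8, 10.1 and 0 in primary roots. The primary library that was high was thus replicate 2 in some genes and replicate 1 in another. Pgl_GLEAN_10008832, next to Pgl_GLEAN_10008831 by identifier, stood at 231, 482 and 445 in lateral roots and at 10.1, 42.6 and 0 in primary roots.

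Primary roots were low but seldom fully at 0 in these 35 genes. Their primary means ran from 0.677 to 79.8 (median 15.0), 13 genes had no primary library at 0, 16 had 1 and 6 had 2. Each lateral library was above each primary library in 33 of the 35 genes, against 20.5% of all 19754 genes. The rule used the lateral values, and grouping by carrying root type put primary roots below the limit in at least 1 library for these genes. This share is therefore a description of the selection and the grouping. The 2 overlapping genes were Pgl_GLEAN_10038107, at 59.0, 10.1 and 96.5 in primary and 30.3, 90.3 and 111 in lateral roots, and Pgl_GLEAN_10027463, at 196, 23.3 and 20.3 in primary and 102, 513 and 336 in lateral roots. Likewise each lateral library was above each crown library in 23.0% of all genes, which the rule fixed for the 39 genes at 0 in crown roots and carried by lateral roots.

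Across the 41 genes at 0 in crown roots, the primary libraries differed in how many were at 0. Primary replicate 2 was at 0 in 5 genes, replicate 1 in 13 and replicate 3 in 16. The medians over the 41 genes were 6.75, 16.2 and 6.35 normalised counts in primary replicates 1, 2 and 3. The rule could use the primary values for 6 of the 41 genes, the 2 at 0 and the 4 at the limit or more in primary roots.

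**Figure D3:**
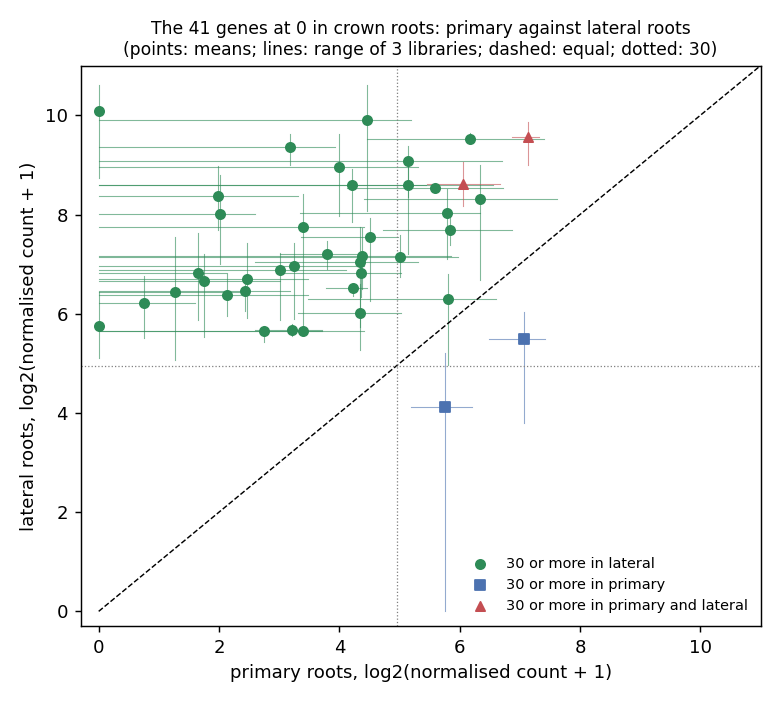
Mean of the primary libraries (horizontal axis) and of the lateral libraries (vertical axis) for the 41 genes at 0 in crown roots, both as log2(mean normalised count + 1), with lines for the range of the 3 libraries. The points lie above the dashed line of equality except for 2 genes carried by primary roots.

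The remaining genes at 0 in crown roots had clear primary expression. Pgl_GLEAN_10005262 stood at 169, 89.2 and 141 in primary roots and at 12.99, 54.5 and 64.5 in lateral roots, with no overlap. Pgl_GLEAN_10038592 stood at 50.6, 73.0 and 35.6 in primary roots and at 35.7, 13.2 and 0 in lateral roots, so primary replicate 3 and lateral replicate 1 overlapped. These were the 2 genes among the 41 with a higher mean in primary than in lateral roots.

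Lateral and primary roots were tested against each other in 2 genes, those at 30 or more in all 3 libraries of both root types. The rule needed that in only 1 root type, and the choice of both was made for the test. That choice asked for no difference between them. The test was not free of the rule: crown values fixed at 0 entered the shared estimate of the spread and could lower it. The test was limma on log2(normalised count + 1), fitted over all 19754 genes, and a gene was called when its adjusted p was under 0.01 and its log2 fold change was 1 or more in size. Pgl_GLEAN_10036071 stood at 931, 829 and 511 (mean 757) in lateral roots and at 159, 117 and 142 (mean 139) in primary roots. It was higher in lateral roots by a log2 fold change of 2.40 (SE 0.38, limma adjusted p = 0.00267). Pgl_GLEAN_10035424 stood at 287, 359 and 532 (mean 393) in lateral roots and at 43, 101 and 52.1 (mean 65.5) in primary roots, a log2 fold change of 2.62 (SE 0.49, limma adjusted p = 0.00664). Both were called, also when only lateral and primary libraries were fitted (2 of 2), and their libraries did not overlap. Over all genes, 3.24% were called higher in lateral than primary roots.

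These calls lay close to the threshold. Pgl_GLEAN_10035424 was no longer called without primary replicate 1 (limma adjusted p = 0.0326), primary replicate 3 (0.0299), or lateral replicate 1 (0.0167), 2 (0.0403) or 3 (0.0436). Its adjusted p ran from 0.00137 to 0.0436 over all alternatives, and it was 0.0152 with the replicate number as a block. Pgl_GLEAN_10036071 was no longer called without primary replicate 1 (limma adjusted p = 0.0125), 2 (0.0122) or 3 (0.0139) or lateral replicate 1 (0.0164) or 2 (0.0269). Its adjusted p ran from 0.000573 to 0.0269, and its log2 fold change stayed between 2.23 and 2.66.

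The 10 genes at 0 in lateral roots were all carried by crown roots, alone or with primary roots. Their crown means ran from 39.0 to 444 normalised counts (median 113). Pgl_GLEAN_10021544 stood at 383, 56.8 and 131 in crown replicates 1, 2 and 3 and at 2.53, 0 and 0 in the primary libraries. Pgl_GLEAN_10013312 stood at 237, 105 and 106 in crown roots and at 30.4, 16.2 and 44.4 in primary roots. Pgl_GLEAN_10012219 stood at 178, 78.1 and 135 in crown roots and at 19.4, 0 and 10.2 in primary roots. In each of these, primary values lay between the 0 of lateral roots and the crown values, or reached 0 themselves.

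Pgl_GLEAN_10020566 was unusual in its spread, at 453, 48.7 and 31.3 in crown roots against 33.7, 0 and 19.1 in primary roots, so that primary replicate 1 exceeded crown replicate 3. Pgl_GLEAN_10037110 stood at 49.1, 37.5 and 169 in crown roots, and among the primary libraries at 28.4 in replicate 2 and 0 in the others. Pgl_GLEAN_10028033 stood at 38.7, 40.6 and 66.9 in crown roots and at 8.43, 12.2 and 0 in primary roots. Pgl_GLEAN_10017672 had the tightest crown values of this group, 37.6, 42.6 and 36.7, against 3.37, 9.12 and 7.62 in primary roots. Over the 10 genes the crown mean was the higher in 10, and each crown library was above each primary library in 8. Over all genes that share was 15.1%, and for the 7 genes carried by crown roots alone the rule bore on it.

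For the 3 genes carried by both crown and primary roots with 0 in lateral roots, crown and primary roots were tested. Lateral values fixed at 0 by the rule entered the shared estimate of the spread here as well. Pgl_GLEAN_10019795 stood at 909, 98.4 and 325 in crown roots and at 71.7, 49.6 and 49.5 in primary roots, without overlap. Its log2 fold change was 2.44 (SE 0.72, limma adjusted p = 0.0683). Pgl_GLEAN_10004447 stood at 148, 90.3 and 48.6 in crown roots and at 38.0, 34.5 and 35.6 in primary roots, a log2 fold change of 1.25 (SE 0.62, limma adjusted p = 0.25). Pgl_GLEAN_10000564 stood at 60.6, 82.2 and 45.3 in crown roots and at 59.0, 54.7 and 61.0 in primary roots, where the log2 fold change was 0.07 (SE 0.56, limma adjusted p = 0.959) and the libraries overlapped.

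With limma, 0 of these 3 genes passed the threshold and 1 of the 3 had an unadjusted p under 0.05. Over all genes, 0.400% were called higher in crown than primary roots. With only crown and primary libraries in the fit, 0 of the 3 were called. Leaving out crown replicate 1 lowered the log2 fold change of Pgl_GLEAN_10019795 to 1.66, and leaving out crown replicate 2 raised it to 3.25. The sign for Pgl_GLEAN_10000564 turned to -0.11 with equal library totals and to -0.15 without crown replicate 2, uncalled in each case.

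Of the genes at 0 in primary roots alone, 3 were carried by lateral roots. Pgl_GLEAN_10008603 stood at 298, 722 and 629 in lateral roots and at 4.18, 8.12 and 2.16 in crown roots. Pgl_GLEAN_10038040 stood at 44.4, 48.2 and 44.7 in lateral roots and at 8.36, 21.3 and 0 in crown roots. Pgl_GLEAN_10031287 stood at 30.3, 32.7 and 57.2 in lateral roots and at 0, 1.01 and 2.16 in crown roots. Crown values in these 3 genes were low, and no gene at 0 in primary roots had 30 or more in both other root types, so lateral and crown roots were not tested within this set.

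Pgl_GLEAN_10023339 was the gene at 0 in primary roots that crown roots carried. It stood at 469, 33.5 and 107 in crown replicates 1, 2 and 3, and at 0, 0 and 4.16 in the lateral libraries. Its neighbour by identifier, Pgl_GLEAN_10023338, was one of the genes just outside the limit, with a similar order of crown values (262, 28.4 and 61.5). That gene stood at 0 in the primary libraries and at 0, 0 and 7.28 in lateral roots. The listed gene on the other side, Pgl_GLEAN_10023342, had means of 102 in crown, 0 in primary and 1.04 in lateral roots.

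The spread between replicates of the root type carrying the expression was set beside that of other genes whose means fell in the same range. Levels were not matched within that range. The median of the means was 141 for the selected genes and 327 for the others in lateral roots, 130 and 181 in crown roots, and 58.2 and 85.6 in primary roots, so the comparison is a description. Over the 42 genes at 30 or more in lateral roots, the median coefficient of variation (SD over mean) was 43.7%, and it was 17.2% over the 9495 other genes in the same range of lateral means. It exceeded the 75th percentile of those genes, 26.7%, in 31 of the 42. Over the 11 genes carried by crown roots the median was 52.4%, against 23.9% over 5749 other genes, and 8 exceeded their 75th percentile of 35.8%. The 7 genes carried by primary roots had a median of 22.4%, below the 25.6% of 2256 other genes.

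Lateral replicate 1 was the lowest of the lateral libraries in 30 of the 42 genes. Among other genes at 30 or more in lateral roots it was the lowest in 40.9%, and among the 1615 other genes called higher in lateral than crown roots in 48.7%. Crown replicate 1 was the highest in 7 of the 11 genes carried by crown roots (63.6%), in 45.9% of other genes at 30 or more in crown roots and in 64.0% of the 946 other genes called higher in crown than lateral roots. The share among the selected genes was thus near that of other genes high in crown roots. The summed value of the 55 genes was 7828, 12827 and 13015 in lateral replicates 1, 2 and 3, and 2976, 744 and 1206 in crown replicates 1, 2 and 3. In primary replicates 1 to 3 it was 1380, 1634 and 1041. What made lateral replicate 1 low for these genes was not tested.

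**Figure D4:**
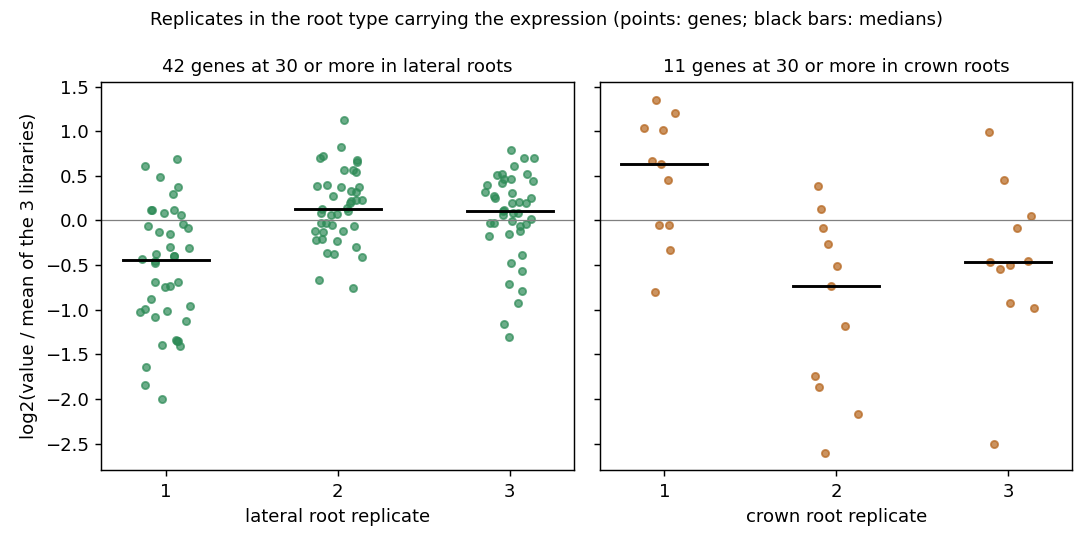
Value in each library relative to the mean of its 3 replicates (vertical axis, log2) for the 42 genes carried by lateral roots and the 11 carried by crown roots, by replicate (horizontal axis). Points are genes and black bars medians, which lie lowest for lateral replicate 1 and highest for crown replicate 1.

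Several of the 55 genes had identifiers close to one another. In all, 15 genes formed 8 successive pairs whose identifier numbers differed by at most 10, and in 4 pairs the numbers were consecutive. In all 8 pairs both genes were at 0 in crown roots and carried by lateral roots, as were 39 of the 55 genes. Pairs were counted among selected genes only, so Pgl_GLEAN_10023338, just outside the limit beside Pgl_GLEAN_10023339, is not counted. The share of close identifiers among all listed genes was not worked out. The consecutive pairs were Pgl_GLEAN_10006806 with Pgl_GLEAN_10006807, Pgl_GLEAN_10008831 with Pgl_GLEAN_10008832, Pgl_GLEAN_10035423 with Pgl_GLEAN_10035424, and Pgl_GLEAN_10035454 with Pgl_GLEAN_10035455. Pgl_GLEAN_10036066, Pgl_GLEAN_10036071 and Pgl_GLEAN_10036073 followed each other with no other listed gene between, at lateral means of 63.3, 757 and 260. Whether near numbers stand for neighbouring genes on a chromosome, or for copies of like sequence that could share reads, was not tested.

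**Figure D5:**
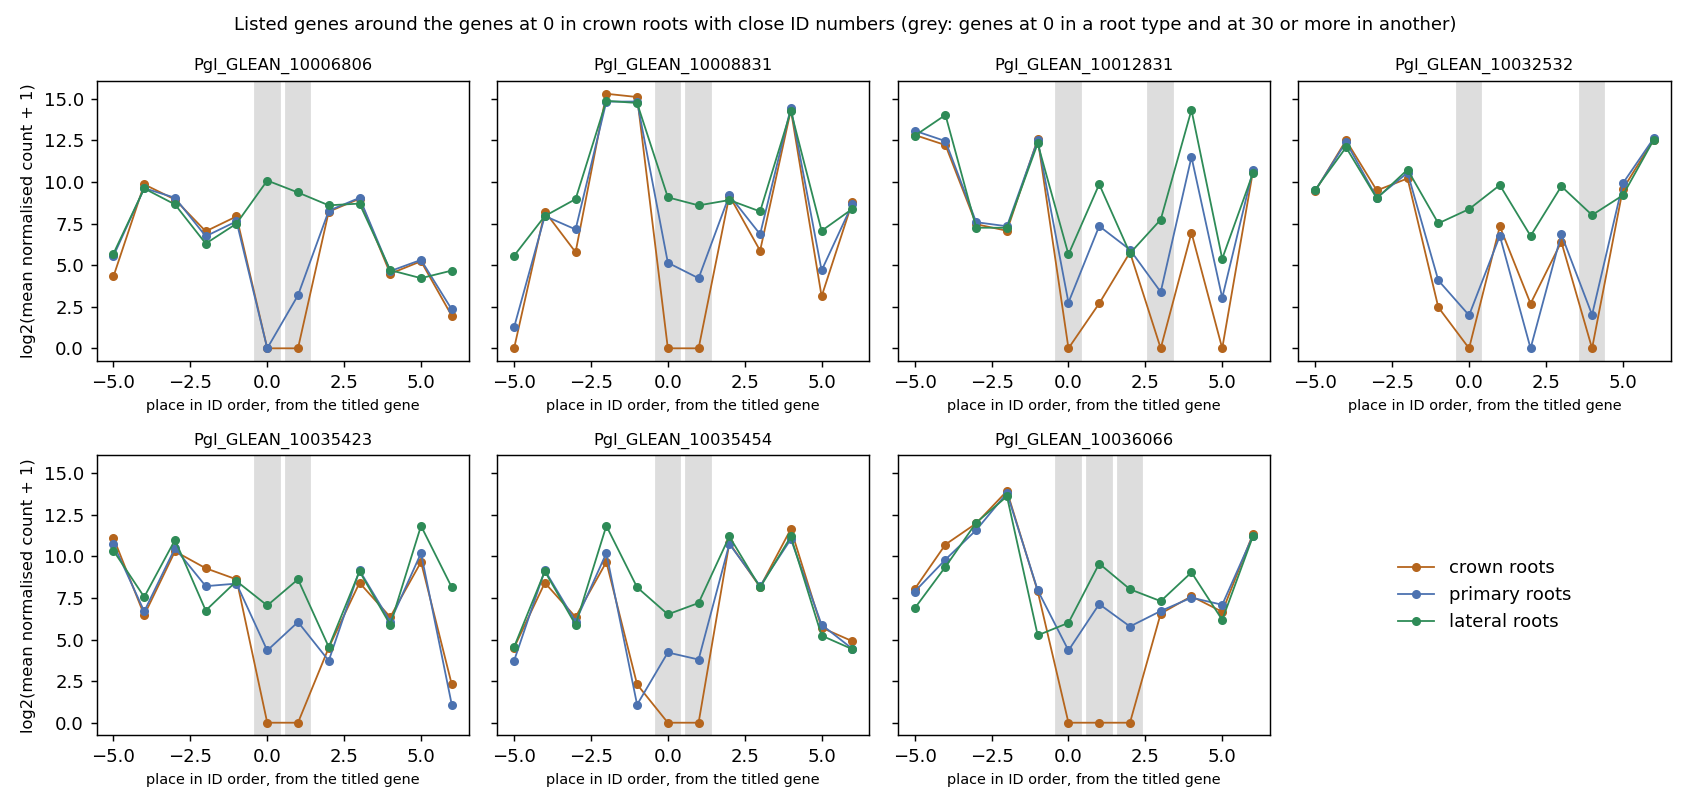
Means of crown, primary and lateral roots (vertical axis, log2(mean normalised count + 1)) for 12 listed genes in identifier order (horizontal axis) around each close pair or run of the selected genes, which are shaded grey. The crown line falls to 0 at the shaded genes, and several unshaded genes beside them also have the lateral line on top.

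The genes next to them by identifier were tested between lateral and crown roots with the same fit. A neighbour was the nearest listed gene on each side whose number differed by at most 5. Of 62 neighbours of the 39 genes at 0 in crown roots and carried by lateral roots, 14 were called higher in lateral roots and 1 higher in crown roots. Over all genes, 8.38% were called higher in lateral and 4.84% higher in crown roots. The 14 neighbours stood beside 12 of the 39 genes, and 47 of the 62 were called in neither direction. The median log2 fold change over the 62 was 0.03, against 0.02 over all genes.

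Of the 14 neighbours, 6 had a log2 fold change over 4, and they are named for that after their values were seen. The share of all genes with so large a change was not worked out. Pgl_GLEAN_10012832 stood at 0, 12.2 and 4.32 in crown roots and at 728, 967 and 1102 in lateral roots, a log2 fold change of 7.80 (SE 0.74, limma adjusted p = 3.29e-05). Pgl_GLEAN_10012839 was far more abundant, at 50.2, 133 and 185 in crown roots and at 12470, 23763 and 25655 in lateral roots (7.50, limma adjusted p = 2.17e-06). Pgl_GLEAN_10017011, next to Pgl_GLEAN_10017010, stood at 0, 15.2 and 21.6 in crown roots and at 471, 921 and 869 in lateral roots (6.66, limma adjusted p = 0.00105). Primary roots lay between the others for Pgl_GLEAN_10012832 (181, 188 and 117) and Pgl_GLEAN_10012839 (2542, 3432 and 2749). The other 3 were Pgl_GLEAN_10032531, Pgl_GLEAN_10033156 and Pgl_GLEAN_10003703, with log2 fold changes of 6.02, 5.83 and 4.34.

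A stretch with several such genes lay around Pgl_GLEAN_10032532, at 205, 282 and 503 in lateral roots, and Pgl_GLEAN_10032541, at 128, 200 and 444. Of the listed genes beside and between them, Pgl_GLEAN_10032531, Pgl_GLEAN_10032535 and Pgl_GLEAN_10032539 were called higher in lateral than crown roots. Pgl_GLEAN_10032537, also between them, stood at 25.99, 130 and 166 in lateral roots, at 4.18, 12.2 and 0 in crown roots and at 0 in primary roots, and was not called (limma adjusted p = 0.015). Lateral replicate 1 was the lowest lateral library in each of these genes except Pgl_GLEAN_10032539. The listed genes on the outer sides of the stretch, Pgl_GLEAN_10032530 and Pgl_GLEAN_10032543, were not called.

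Around Pgl_GLEAN_10006806 and Pgl_GLEAN_10006807 none of the 10 other listed genes in the plotted window was called in either direction. In the window around Pgl_GLEAN_10036066, 2 of the 9 other listed genes were called higher in crown roots and 0 higher in lateral roots. The window around Pgl_GLEAN_10035423 held 1 gene called higher in crown and 2 called higher in lateral roots, and that around Pgl_GLEAN_10008831 held 4 called higher in lateral roots. The windows around Pgl_GLEAN_10012831 and Pgl_GLEAN_10032532 each held 3 called higher in lateral roots, and that around Pgl_GLEAN_10035454 held 2. Those 2, Pgl_GLEAN_10035432 and Pgl_GLEAN_10035438, are the same genes as in the window around Pgl_GLEAN_10035423. Over all genes, 8.38% were called higher in lateral and 4.84% higher in crown roots. With so few genes a window, differences between windows were not tested.

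For the 10 genes at 0 in lateral roots, 18 neighbours were tested, of which 4 were called higher in crown roots and 1 higher in lateral roots, beside the same 4.84% and 8.38% over all genes. Pgl_GLEAN_10020570 stood at 1649, 275 and 413 in crown roots and at 19.5, 30.3 and 17.7 in lateral roots (log2 fold change -4.65, SE 0.77, limma adjusted p = 0.00107). Pgl_GLEAN_10020564 moved the other way, at 66.9, 69.0 and 35.6 in crown roots and 911, 1043 and 722 in lateral roots (log2 fold change 3.98, limma adjusted p = 8.86e-06). They are the neighbours on either side of Pgl_GLEAN_10020566, so genes with adjoining numbers did not all share a direction.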

How the data were processed

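The authors cleaned reads with cutadapt 3.1, mapped them with HISAT2 2.0.1 and assembled transcripts with StringTie 1.3.4, as the submitters' notes and the methods list them, and deposited normalised counts (a signal that is never negative) made with the DESeq2 method. Read counts were obtained with the TOGGLE toolbox, per the methods. The deposited signal has 2 decimals for 19754 genes and 9 libraries, and 0 columns were left out. The methods give 90 as the lowest summed count a gene needed over the samples, so genes below it may not be listed.

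Whole counts were recovered as multiples of a step for each library (tolerance 0.1 of a step). In every library 29.8% to 34.0% of recovered counts from 1 to 40 were multiples of 4. A count may then not equal a read, and no counting interval is given. Depth is the sum of recovered counts.

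Members needed 0 in all 3 libraries of a root type and at least 30 in all 3 of another. Members and lists were chosen with earlier results of these data known. Named genes were those at 0 in primary or lateral roots, the 10 highest means at 0 in crown roots, members at 0 in 2 root types, members carried by 2 root types and the 3 on each side of the limit. Pgl_GLEAN_10005262, Pgl_GLEAN_10038592, Pgl_GLEAN_10027463, Pgl_GLEAN_10032532, Pgl_GLEAN_10032541, the other members with close identifiers and the neighbours were named outside this rule, after their values were seen. Tests were run with limma 3.58.1 (R 4.3.3). Values entered as log2(normalised count + 1), the trend of the variance with the mean was kept, and the 9 libraries shared a fit. The p-values were adjusted over all genes by the Benjamini-Hochberg method. The script was checked on simulated data with no root type fixed at 0, so that check does not cover the zeros of the tested members. A fold change on this scale understates the change of low genes. The neighbour tests were added after seeing the data. Lists of pathways or cell types could not be applied, as no annotation was used here, and no sequence is printed.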

Additional observations from a re-analysis of the deposited data

How the results depend on the processing

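The numbers of genes depended on the limit more than on scaling. With a limit of 20, primary roots had 11 genes. With 50 they had 2 and lateral roots 5, and with 100 crown, primary and lateral roots had 18, 2 and 1. Leaving out each library could only keep or raise these numbers. It gave 41 to 67 genes for crown, 6 to 15 for primary and 10 to 20 for lateral roots. The highest values came without crown replicate 3, primary replicate 2 and lateral replicate 2. The limit of 30 on recovered counts gave 39, 5 and 9 genes, and the other alternatives moved none of these numbers by over 1.5 times. Of the 2 genes called higher in lateral than primary roots, 1 was called with a pseudocount of 0.5, 1 with a minimum mean of 50 and 1 with the replicate block, and 0 to 2 were called when a library was left out. The replicate block moved the count of all genes called between lateral and primary roots from 853 to 683. Libraries with the same number did not deviate together (correlations from -0.16 to 0.16, 1 of 9 over 0.1). These correlations cannot show whether such libraries came from the same plants, which is not stated. The 0 of 3 genes called between crown and primary roots, and the 14 and 4 called neighbours, stayed within 1.5 times under all alternatives run, at 11 to 16 and 3 to 6. With equal library totals, the median over all genes shifted to 0.19 (log2, lateral minus crown) and to -0.20 (crown minus primary). The quasi-likelihood and DESeq2 count models set as alternatives were not run, since the deposited values did not pass as whole reads. With 3 libraries a group, a 0 cannot be told from a low level below the detection of the libraries, and the cause of these changes was not tested.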
